A study of Mus musculus with 6 samples.

Results

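Hoxa5, Hoxa7, Hoxa9, Hoxa10, Meis1, Pbx3, Hlf and Mecom are transcription factors of blood stem cells and early progenitors, and their RNA was followed through 3 subsets of murine common dendritic cell progenitors (CDPs). The 8 genes were chosen by symbol, and all 8 were among the 16135 genes listed in the deposited files. CDPs are progenitors committed to dendritic cells. Those sorted as CD115-Ly6C-, as CD115+Ly6C+ and as CD115+Ly6C- gave 2 libraries each, all from bone marrow of wildtype C57BL/6 mice aged 6 to 8 weeks that carried no named allele or treatment. The M-CSF receptor CD115 is encoded by Csf1r, and Ly6C is a surface protein of monocyte-lineage cells. The labels do not say whether the 2 libraries of a subset came from separate mice, so p-values measure the spread between these libraries, which may be technical.

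As background, Hox proteins are homeodomain factors that bind DNA together with Meis and Pbx proteins, which belong to the TALE class of homeodomain proteins. In mouse bone marrow, genes of the middle and 5′ part of the Hoxa cluster and Meis1 are known for high transcript levels in stem and early progenitor cells and for lower levels in maturing cells, and the histone methyltransferase MLL, encoded by Kmt2a, maintains their transcription. Hlf, a PAR bZIP factor, and Mecom, a zinc finger factor also known as Evi1, are known as regulators of stem cell maintenance in the mouse.

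The 250 bases before an annotated start are shown for Hoxa9 and Meis1, which changed in every comparison below, and for Hoxa7, the neighbour of Hoxa9 that passed the test in none. They are RefSeq sequences of build GRCm38.p6, read 5′ to 3′ on the minus strand, on which these genes lie. The Hoxa9 window is chr6:52227371-52227620, the Meis1 window is chr11:19018970-19019219, at a start inside the annotated gene, and the Hoxa7 window is chr6:52218574-52218823. Capitals mark GGGCGG (a GC box), CCAAT and CCGGAAG (an ETS family core), searched on both strands.
Hoxa9: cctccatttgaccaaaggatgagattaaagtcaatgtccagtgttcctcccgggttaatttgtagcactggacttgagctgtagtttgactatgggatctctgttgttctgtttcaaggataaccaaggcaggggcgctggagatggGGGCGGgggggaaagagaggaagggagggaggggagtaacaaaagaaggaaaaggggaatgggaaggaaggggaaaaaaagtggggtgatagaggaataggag
Meis1: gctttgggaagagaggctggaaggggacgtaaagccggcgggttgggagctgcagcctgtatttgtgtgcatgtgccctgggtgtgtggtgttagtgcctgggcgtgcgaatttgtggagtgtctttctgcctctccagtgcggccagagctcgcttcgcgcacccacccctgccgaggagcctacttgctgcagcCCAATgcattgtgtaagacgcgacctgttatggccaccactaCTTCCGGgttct
Hoxa7: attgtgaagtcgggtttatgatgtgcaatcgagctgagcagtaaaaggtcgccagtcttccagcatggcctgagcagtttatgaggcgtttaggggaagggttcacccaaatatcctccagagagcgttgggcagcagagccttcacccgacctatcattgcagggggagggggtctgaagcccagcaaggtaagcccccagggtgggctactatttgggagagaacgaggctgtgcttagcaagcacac
The Hoxa9 window held 1 GC box, 103 bases before the start. The Meis1 window held CCAAT, 54 bases before the start, and CCGGAAG, read on the opposite strand 12 bases before it, and the Hoxa7 window held none of the motifs. GGGCGG was found in 32.7%, CCAAT in 33.8% and CCGGAAG in 6.91% of all 32851 RefSeq promoter windows of this length. A Meis core, TGACAG, was in none of these 3 windows and in 15.9% of all windows. A joint Pbx and Hox site, TGATTNAT, was also in none of them and in 2.82% of all windows. The motifs do not overlap one another in letters. The Hoxa9 window held 3 CpG dinucleotides, the Meis1 window 13 and the Hoxa7 window 7, against a median of 6 over all windows.

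The libraries held 17961541 to 19450329 expected counts each, and 13307 to 14127 genes were listed per library. The sorting markers followed the labels. On the CPM scale, which gives counts relative to library size (here after edgeR's TMM scaling), Csf1r averaged 236 ± 32.5 CPM in CD115-Ly6C- cells, 542 ± 15.6 CPM in CD115+Ly6C+ cells and 463 ± 70.0 CPM in CD115+Ly6C- cells (SD, n = 2 each). Ly6c2 averaged 51.8 ± 14.1 CPM in CD115-Ly6C- cells, 1419.7 ± 27.2 CPM in CD115+Ly6C+ cells and 155 ± 47.7 CPM in CD115+Ly6C- cells. All 10 dendritic cell progenitor markers (Flt3, Csf1r, Kit, Irf8, Cx3cr1, Batf3, Zbtb46, Sirpa, Cd74 and Tcf4) were detected in each subset. Their summed level was 3906 to 4118 CPM in CD115-Ly6C-, 3806 to 4093 CPM in CD115+Ly6C+ and 3888 to 4336 CPM in CD115+Ly6C- libraries. Irf8 was the largest part, averaging 2113, 2576 and 2517 CPM in that order, and Batf3 had only 17, 37 and 9 counts. The similar sums hid opposite changes by the edgeR test below. For CD115-Ly6C- against CD115+Ly6C+ cells, 3 of the 10 rose (Flt3, Kit and Tcf4) and 4 fell (Csf1r, Cx3cr1, Zbtb46 and Sirpa). Against CD115+Ly6C- cells, 3 rose and 2 fell for CD115-Ly6C-, and 3 rose and 3 fell for CD115+Ly6C+.

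Of the 8 genes, 7 entered the edgeR quasi-likelihood test, which ran over 12127 genes with Benjamini-Hochberg adjustment and a threshold of 0.05. Hoxa5 had too few counts. Hoxa10 and Mecom passed the filter on low counts only through the CD115-Ly6C- libraries, where they are high, so counts over the 7 genes describe them and support nothing further. In CD115-Ly6C- against CD115+Ly6C- cells, 5 of the 7 rose (Hoxa9, Hoxa10, Meis1, Hlf and Mecom) and 0 fell. Of all genes tested, 8.43% were called higher and 6.78% lower in that comparison. In CD115+Ly6C+ against CD115+Ly6C- cells, 3 fell (Hoxa9, Meis1 and Hlf) and 0 rose, where 4.34% of all genes were called lower and 5.26% higher. In CD115-Ly6C- against CD115+Ly6C+ cells, the 5 genes of the first comparison were again higher and 0 were lower, where 20.1% of all genes were called higher and 19.2% lower. In the directions with a count of 0 by edgeR, the count was also 0 at an unadjusted p under 0.05 and by DESeq2. These comparisons share libraries in pairs, so they are not independent of one another. The median log2 fold changes of the 7 genes were 1.35, -0.81 and 2.16 in that order, beside 0.02, -0.01 and 0.03 over all genes tested. With Mecom, which had no count in CD115+Ly6C+ cells, set to the bound that its counts allow, the medians of the last 2 comparisons were -0.57 and 2.16.

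**Figure D1:**
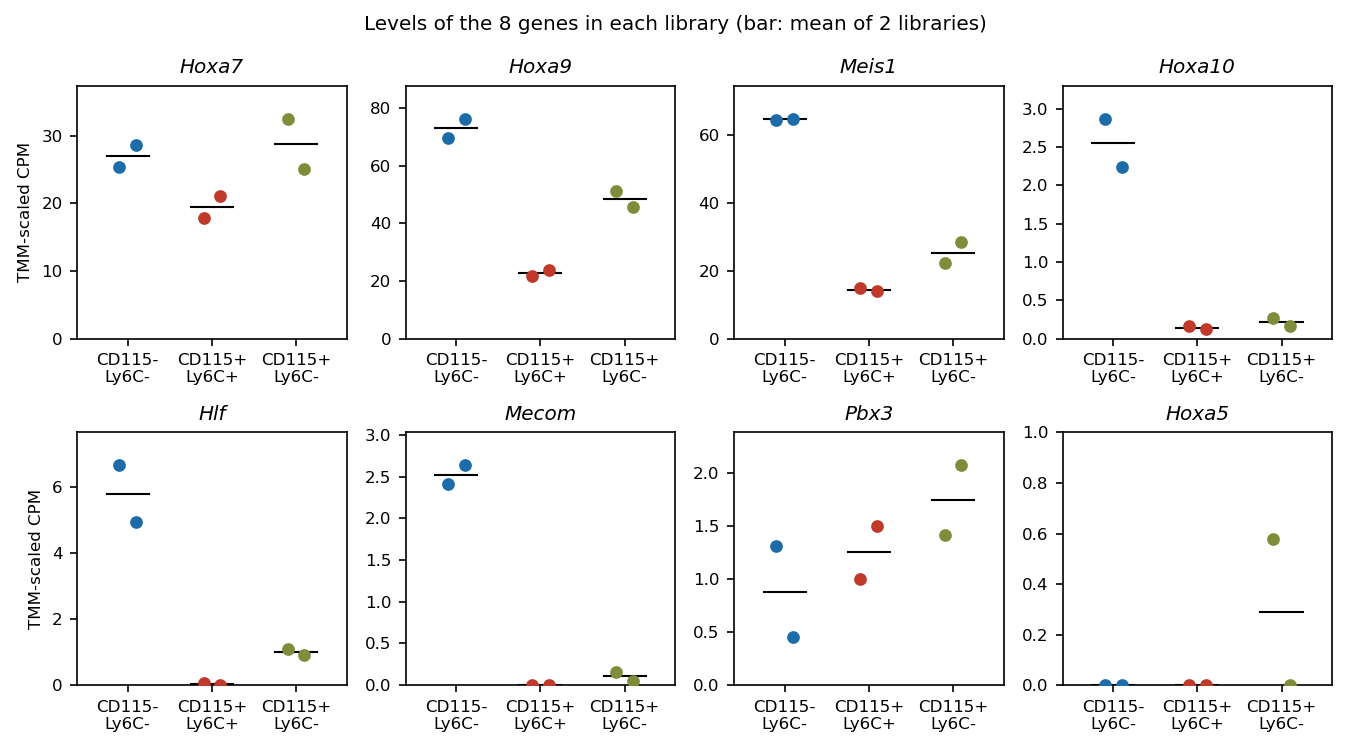
TMM-scaled CPM of each gene in each of the 6 libraries, with CD115-Ly6C- CDPs on the left, CD115+Ly6C+ in the middle and CD115+Ly6C- on the right; points are libraries, bars are means of 2 libraries and every vertical axis starts at 0. Hoxa9, Meis1 and Hlf order the subsets without overlap, with Hlf near 0 in CD115+Ly6C+ cells. Hoxa10 and Mecom lie near 0 outside CD115-Ly6C- cells. Hoxa7 overlaps between the Ly6C- subsets and lies lower in CD115+Ly6C+ cells. Pbx3 in CD115+Ly6C+ cells overlaps with both other subsets.

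Hoxa9, a homeodomain factor needed in the mouse for normal stem cell function, had 1385 and 1534 expected counts in CD115-Ly6C- libraries, 387 and 395 in CD115+Ly6C+ libraries and 976 and 860 in CD115+Ly6C- libraries. The subsets did not overlap, with CD115-Ly6C- highest, CD115+Ly6C- between and CD115+Ly6C+ lowest. The mean level was 73.0 ± 4.68 CPM in CD115-Ly6C-, 22.6 ± 1.47 CPM in CD115+Ly6C+ and 48.4 ± 3.94 CPM in CD115+Ly6C- cells (SD, n = 2 each). In CD115-Ly6C- against CD115+Ly6C+ cells the log2 fold change was 1.69 ± 0.14 (SE; edgeR quasi-likelihood test, adjusted p = 6.42e-05), a 3.23-fold higher level. In CD115+Ly6C+ against CD115+Ly6C- cells it was -1.10 ± 0.14 (adjusted p = 0.00286, edgeR). The difference between the 2 Ly6C- subsets was smaller, with a log2 fold change of 0.59 ± 0.13 for CD115-Ly6C- over CD115+Ly6C- (adjusted p = 0.0212, edgeR). That last call was lost when any of the 4 libraries compared was left out, with adjusted p of 0.0758 and 0.0963 without CD115-Ly6C- replicate 1 or 2 and 0.0745 and 0.0944 without CD115+Ly6C- replicate 1 or 2, and with each library's trend on gene length removed (adjusted p = 0.0771). In bulk libraries such as these, fewer cells that carry a transcript and less of it per cell cannot be told apart.

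Hoxa7 lies next to Hoxa9 in the cluster and encodes another homeodomain factor. It had 504 and 575 expected counts in CD115-Ly6C- libraries, 320 and 352 in CD115+Ly6C+ libraries and 620 and 472 in CD115+Ly6C- libraries. Its levels in the 2 Ly6C- subsets overlapped, and both CD115+Ly6C+ libraries lay below all others. The mean level was 27.0 ± 2.29 CPM in CD115-Ly6C-, 19.5 ± 2.29 CPM in CD115+Ly6C+ and 28.8 ± 5.29 CPM in CD115+Ly6C- cells. None of the 3 comparisons passed the edgeR test, with log2 fold changes of -0.09 ± 0.18 for CD115-Ly6C- over CD115+Ly6C- (adjusted p = 0.759), -0.57 ± 0.18 for CD115+Ly6C+ over CD115+Ly6C- (adjusted p = 0.0862) and 0.47 ± 0.18 for CD115-Ly6C- over CD115+Ly6C+ (adjusted p = 0.0690). The comparisons with CD115+Ly6C+ cells crossed the threshold under other settings. The adjusted p for CD115-Ly6C- over CD115+Ly6C+ was 0.0170 with scaling by library totals and 0.0194 with the length trend removed, and for CD115+Ly6C+ over CD115+Ly6C- it was 0.0418 with the length trend removed. Of the 6 transcripts counted under Hoxa7, 5 carry only a number given by the submitters.

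Set per length, on the FPKM scale, Hoxa7 and Hoxa9 were the most abundant of the 8 genes. In CD115-Ly6C- cells they stood at the same level, with Hoxa7 at 25.99 and 27.88 FPKM and Hoxa9 at 25.47 and 27.23 FPKM. The FPKM ratio of Hoxa9 to Hoxa7 was 0.980 and 0.977 in CD115-Ly6C- libraries, 0.421 and 0.408 in CD115+Ly6C+ libraries and 0.566 and 0.632 in CD115+Ly6C- libraries. The ratio did not overlap between subsets, so the neighbouring genes did not keep 1 proportion. The difference between their fold changes was not tested.

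Hoxa10, a neighbour of Hoxa9 on the 5′ side of the cluster, was rare. It had 57 and 45 expected counts in CD115-Ly6C- libraries, 3 and 2 in CD115+Ly6C+ libraries and 5 and 3 in CD115+Ly6C- libraries. The CD115-Ly6C- libraries stood far above the rest, and the CD115+ subsets overlapped. The log2 fold change was 3.56 ± 0.66 for CD115-Ly6C- over CD115+Ly6C- (edgeR adjusted p = 0.0109), -0.53 ± 0.84 for CD115+Ly6C+ over CD115+Ly6C- (adjusted p = 0.719) and 4.09 ± 0.70 for CD115-Ly6C- over CD115+Ly6C+ (adjusted p = 0.00245). The call between the Ly6C- subsets was lost without CD115-Ly6C- replicate 1 (adjusted p = 0.0874) and without CD115+Ly6C- replicate 1 (adjusted p = 0.0541). The files give an abundance-weighted length for each gene. For Hoxa10, with transcripts of 2177 and 2581 nucleotides, it was 2375 and 2484 nucleotides in the CD115-Ly6C- libraries, which corresponds to 48.9% and 76.0% of the estimated abundance in the longer transcript. The libraries of the other subsets hold too few Hoxa10 counts for such a split.

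Hoxa5, a homeodomain gene of the middle of the cluster, was at 0 in all libraries except CD115+Ly6C- replicate 1, where 10.84 expected counts were assigned to it. The gene lies inside the span of Hoxa3 transcripts. In that library Hoxa3 and Hoxa5 summed to 70 counts, a whole number within a tolerance of 0.005. In CD115+Ly6C+ replicate 1, Hoxa3 with 20.46 and Hoxa6 with 0.54 counts likewise summed to 21. In the remaining libraries Hoxa5 and Hoxa6 were at 0 and Hoxa3 was whole by itself, so their sums show nothing about shared reads. The split of reads between overlapping genes is an estimate of the counting program, and the Hoxa5 value is uncertain.

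Hoxa3 was the only gene tested among the 35 other Hox genes, of which 14 were listed. It had 194 and 127 expected counts in CD115-Ly6C- libraries, 20.46 and 30 in CD115+Ly6C+ libraries and 59.16 and 47 in CD115+Ly6C- libraries, and the subsets did not overlap. The log2 fold change was 2.46 ± 0.40 for CD115-Ly6C- over CD115+Ly6C+ (edgeR adjusted p = 0.00195), 1.52 ± 0.38 for CD115-Ly6C- over CD115+Ly6C- (adjusted p = 0.0315) and -0.94 ± 0.41 for CD115+Ly6C+ over CD115+Ly6C- (adjusted p = 0.175). The call between the Ly6C- subsets was lost without CD115-Ly6C- replicate 1 (adjusted p = 0.234) and without either CD115+Ly6C- library (adjusted p = 0.117 each). Of the 39 Hox genes of the mouse, 4 could be tested, all in the Hoxa cluster. No library had more than 7 counts of any Hoxb gene, 1 of any Hoxc gene or 2 of any Hoxd gene.

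**Figure D2:**
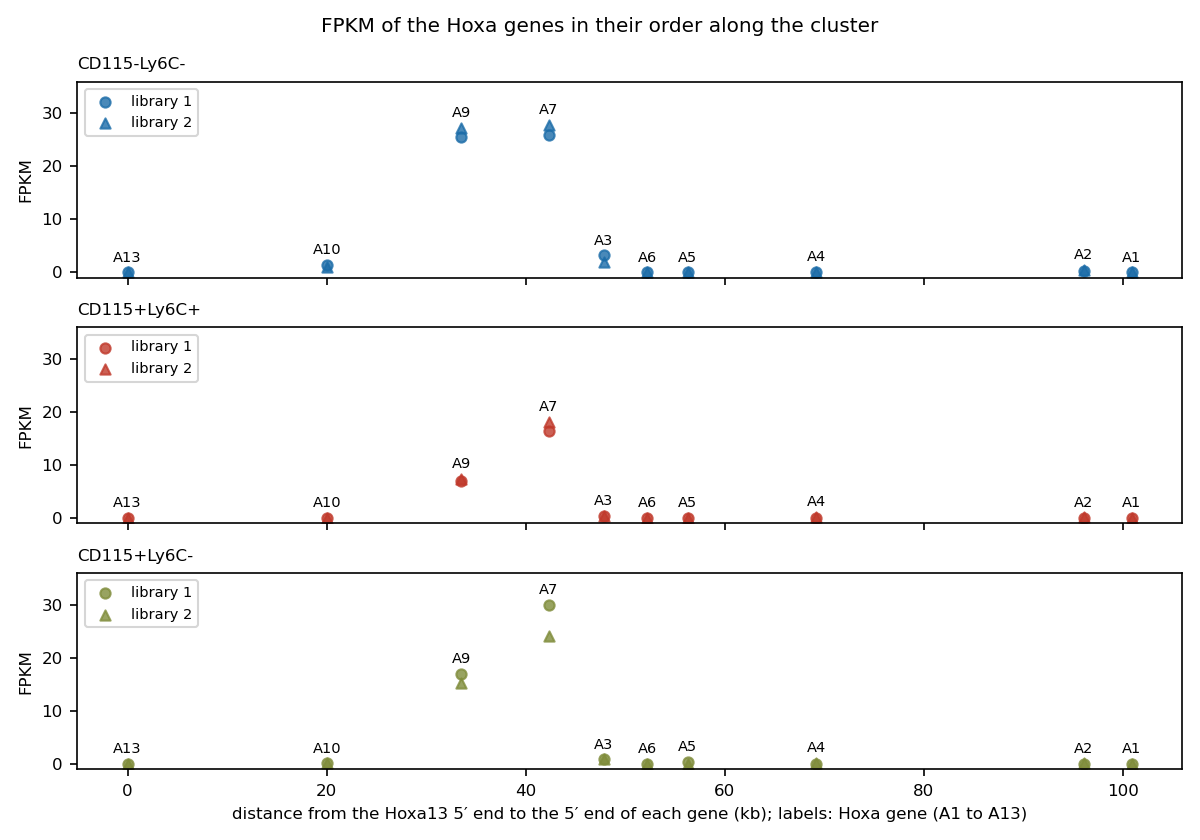
FPKM of the 10 listed Hoxa genes in each library (circles for library 1, triangles for library 2) against the distance in kilobases from the 5′ end of Hoxa13 to the 5′ end of each gene, with CD115-Ly6C- CDPs on top, CD115+Ly6C+ in the middle and CD115+Ly6C- at the bottom. Positions are ends of RefSeq gene spans. The long span of Hoxa3 therefore places it at 47.8 kb, between Hoxa6 and Hoxa7, and not between Hoxa2 and Hoxa4. Hoxa9 and Hoxa7 hold nearly all of the cluster's signal, and they are at the same level in CD115-Ly6C- cells, while Hoxa9 lies below Hoxa7 in the CD115+ subsets.

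All 4 Hoxa genes of the set lie on chromosome 6 of the mm10 build in a stretch from Hoxa5 (chr6:52201754-52204587) through Hoxa7 (chr6:52215623-52218573) and Hoxa9 (chr6:52223097-52227370) to Hoxa10 (chr6:52231197-52240854). All are on the minus strand in the RefSeq annotation of GRCm38. The files listed 10 of the 11 protein-coding genes of the cluster and none of its 12 other RefSeq genes, antisense RNAs among them. Whether the counting used strand is not given in the sources used here, so reads of an antisense partner could not be separated from those of a Hox gene.

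Meis1 (chr11:18880428-19019651), the TALE partner of Hoxa9 on DNA and a regulator of stem cell maintenance in the mouse, had 1282 and 1303 expected counts in CD115-Ly6C- libraries, 270 and 232 in CD115+Ly6C+ libraries and 426 and 536 in CD115+Ly6C- libraries. The order of the subsets was that of Hoxa9, again without overlap. The mean level was 64.7 ± 0.222 CPM in CD115-Ly6C-, 14.5 ± 0.820 CPM in CD115+Ly6C+ and 25.4 ± 4.31 CPM in CD115+Ly6C- cells (SD, n = 2 each). The log2 fold change was 2.16 ± 0.16 for CD115-Ly6C- over CD115+Ly6C+ (edgeR adjusted p = 4.65e-05), a 4.47-fold higher level. It was 1.35 ± 0.16 for CD115-Ly6C- over CD115+Ly6C- (adjusted p = 0.00178), and both of these calls were kept under every alternative run. For CD115+Ly6C+ over CD115+Ly6C- it was -0.81 ± 0.16 (adjusted p = 0.0198), and this call was lost without CD115+Ly6C+ replicate 1 or 2 (adjusted p = 0.0632 and 0.0998) and without CD115+Ly6C- replicate 2 (adjusted p = 0.0812).

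The FPKM ratio of Meis1 to Hoxa9 was 0.850 and 0.779 in CD115-Ly6C- libraries, 0.641 and 0.538 in CD115+Ly6C+ libraries and 0.398 and 0.571 in CD115+Ly6C- libraries. The CD115-Ly6C- libraries were highest, and the CD115+ subsets overlapped. The difference between the fold changes of Meis1 and Hoxa9 was not tested. On the FPKM scale Meis1 was the next most abundant of the 8 genes after Hoxa7 and Hoxa9 in all 6 libraries.

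Pbx3 (chr2:34171457-34372045), a TALE protein that acts as a partner of HOXA9 in human leukaemia, was rare and passed no test. It had 26 and 9 expected counts in CD115-Ly6C- libraries, 18 and 25 in CD115+Ly6C+ libraries and 27 and 39 in CD115+Ly6C- libraries. The CD115+Ly6C+ libraries overlapped with both other subsets, and the spread within CD115-Ly6C- cells was wide. The log2 fold change was -0.98 ± 0.64 for CD115-Ly6C- over CD115+Ly6C- (edgeR adjusted p = 0.328), -0.48 ± 0.63 for CD115+Ly6C+ over CD115+Ly6C- (adjusted p = 0.662) and -0.51 ± 0.65 for CD115-Ly6C- over CD115+Ly6C+ (adjusted p = 0.570). No difference in Pbx3 was detectable at this depth. Without CD115-Ly6C- replicate 2 the last value was 0.07 and the sign of the difference turned.

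Hlf (chr11:90336535-90390917) had 132 and 99 expected counts in CD115-Ly6C- libraries, 1 and 0 in CD115+Ly6C+ libraries and 21 and 17 in CD115+Ly6C- libraries. The 3 subsets did not overlap, and CD115+Ly6C+ cells were at the limit of detection. The mean level was 5.78 ± 1.21 CPM in CD115-Ly6C-, 0.0279 ± 0.0394 CPM in CD115+Ly6C+ and 1.002 ± 0.141 CPM in CD115+Ly6C- cells. Summed over libraries, 231 counts in CD115-Ly6C- against 1 in CD115+Ly6C+ cells gave a ratio of 200.2 after scaling, with an exact 95% interval from 35.6 to 7941. Likewise, 1 count in CD115+Ly6C+ cells against 38 in CD115+Ly6C- cells meant a level 34.7-fold higher in CD115+Ly6C- (exact 95% interval from 5.87 to 1407). These intervals cover counting error only and leave out the spread between replicate libraries, which was larger than counting noise. They also take each count as a separate molecule, which PCR-amplified libraries without molecular identifiers do not ensure. The edgeR test called Hlf in all 3 comparisons, with adjusted p = 0.0124 for CD115-Ly6C- over CD115+Ly6C- (log2 fold change 2.52 ± 0.48), 0.0143 for CD115+Ly6C+ over CD115+Ly6C- and 2.34e-04 for CD115-Ly6C- over CD115+Ly6C+. The call between the Ly6C- subsets was lost without CD115-Ly6C- replicate 1 (adjusted p = 0.110) and without CD115+Ly6C- replicate 1 or 2 (adjusted p = 0.0710 and 0.0596). The call for CD115+Ly6C+ over CD115+Ly6C- was lost without CD115+Ly6C+ replicate 2 (adjusted p = 0.0758) and without CD115+Ly6C- replicate 1 (adjusted p = 0.0773).

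Mecom (chr3:29951296-30509759) had 48 and 53 expected counts in CD115-Ly6C- libraries, 0 and 0 in CD115+Ly6C+ libraries and 3 and 1 in CD115+Ly6C- libraries. Nearly all its counts came from the CD115-Ly6C- libraries. Against a floor of 3 counts over the CD115+Ly6C+ subset, or 0.0866 CPM, the level in CD115-Ly6C- cells was at least 29.2-fold higher. The edgeR test gave adjusted p = 0.00154 for CD115-Ly6C- over CD115+Ly6C+ and 0.0116 for CD115-Ly6C- over CD115+Ly6C- (log2 fold change 4.50 ± 0.79). The comparison of CD115+Ly6C+ with CD115+Ly6C- cells, between 0 and 4 counts, did not pass (adjusted p = 0.188). The call between the Ly6C- subsets was lost without CD115-Ly6C- replicate 1 (adjusted p = 0.0575) and without CD115+Ly6C- replicate 1 or 2 (adjusted p = 0.0544 and 0.0540).

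**Figure D3:**
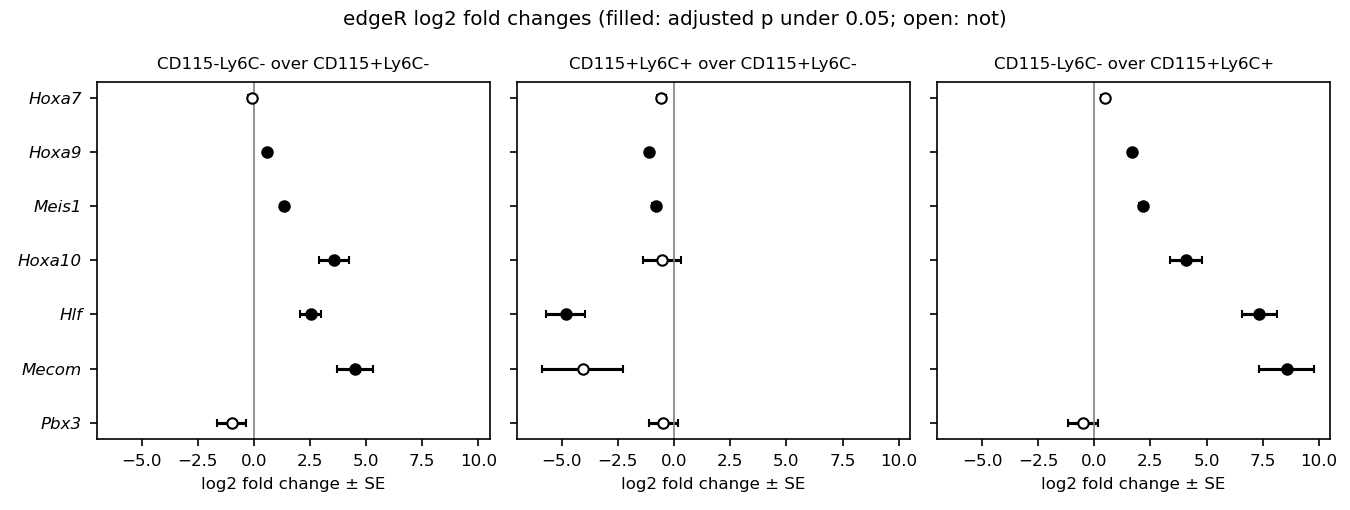
edgeR log2 fold change (point) and its standard error (bar) of the 7 tested genes in CD115-Ly6C- over CD115+Ly6C-, CD115+Ly6C+ over CD115+Ly6C- and CD115-Ly6C- over CD115+Ly6C+ CDPs; filled points have an adjusted p under 0.05. Meis1 and Hoxa9 have short bars, Hoxa10, Hlf and Mecom have wide ones, and the fitted values of Hlf and Mecom against CD115+Ly6C+ cells rest on 1 and 0 counts there.

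By level per length, the order of the genes was Hoxa7 and Hoxa9, then Meis1, and then a wide gap to the rest in all subsets. In CD115-Ly6C- cells Hoxa10 stood at 1.42 and 1.03 FPKM, Hlf at 1.37 and 0.99 FPKM and Mecom at 0.62 and 0.66 FPKM, and Hoxa10 and Hlf did not differ beyond their spread. Pbx3, at 0.53 and 0.18 FPKM, was the lowest of the 7 in those libraries. In CD115+Ly6C+ libraries Pbx3 was instead the highest of these 4 genes at 0.35 and 0.52 FPKM, followed by Hoxa10 at 0.08 and 0.06 FPKM.

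The summed level of long-term stem cell markers, like Hoxa10, Hlf and Mecom, was highest in CD115-Ly6C- libraries. The summed level of 8 markers, Procr, Slamf1, Fgd5 and Pdzk1ip1 among them, was 9.76 to 10.4 CPM in CD115-Ly6C-, 2.40 to 2.73 CPM in CD115+Ly6C+ and 1.57 to 2.49 CPM in CD115+Ly6C- libraries. Fgd5 was at 0 in both CD115+ subsets and Pdzk1ip1 at 0 in CD115+Ly6C+ cells. Of the 4 markers tested, 2 rose in CD115-Ly6C- over CD115+Ly6C+ cells, Pdzk1ip1 among them, and 1 over CD115+Ly6C- cells. The shares of all genes called higher were 20.1% and 8.43%. The markers called passed the filter on low counts only through the CD115-Ly6C- libraries, where they are high, so these counts support nothing further. Procr and Slamf1, surface markers of stem cells, summed to 65 and 10 counts over the CD115-Ly6C- libraries. The part of these markers' cells in the result was not tested.

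Markers of other cells moved with the subsets too. The summed level of 10 late neutrophil granule genes, S100a8 and Ltf among them, was 149 to 311 CPM in CD115-Ly6C-, 3916 to 4196 CPM in CD115+Ly6C+ and 229 to 908 CPM in CD115+Ly6C- libraries. For 8 monocyte genes it was 744 to 968 CPM in CD115-Ly6C-, 6609 to 7246 CPM in CD115+Ly6C+ and 2489 to 2609 CPM in CD115+Ly6C- libraries. For 8 T and NK cell genes it was 161 to 164 CPM in CD115-Ly6C-, 5.21 to 8.25 CPM in CD115+Ly6C+ and 29.5 to 31.1 CPM in CD115+Ly6C- libraries, with Cd3e and Cd3g at 0 in both Ly6C- subsets. The neutrophil and monocyte sums were thus highest where Hoxa9, Meis1 and Hlf were lowest, and the T and NK cell sum ran in the same order as those genes. Most of the T and NK cell sum was Lck, a kinase of T cell receptor signalling, at 142 ± 1.22 CPM in CD115-Ly6C-, 4.57 ± 0.872 CPM in CD115+Ly6C+ and 28.1 ± 1.42 CPM in CD115+Ly6C- cells. The other members did not all share its order. Il2rb, an interleukin receptor chain, was lowest in CD115+Ly6C- cells at 0.265 ± 0.375 CPM, and Cd3d, a T cell receptor chain, had 2 counts in CD115-Ly6C- cells, 15 counts in CD115+Ly6C+ cells and 1 in CD115+Ly6C- cells.

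B cell genes summed to 120 to 122 CPM in CD115-Ly6C-, 96.4 to 109 CPM in CD115+Ly6C+ and 92.4 to 93.6 CPM in CD115+Ly6C- libraries, with Pax5 at 0 in both CD115+ subsets. Most of that sum was Cd79b, a B cell receptor chain, at 79.3 ± 3.82 CPM in CD115-Ly6C-, 96.0 ± 7.87 CPM in CD115+Ly6C+ and 87.4 ± 3.89 CPM in CD115+Ly6C- cells, which passed no test. The edgeR test called 3 of the 7 B cell genes tested (Cd79a, Ebf1 and Rag1) higher in CD115-Ly6C- cells than in each other subset. Of all genes tested, 20.1% were called higher than in CD115+Ly6C+ cells and 8.43% higher than in CD115+Ly6C- cells. Ebf1 and Rag1 passed the filter on low counts only through the CD115-Ly6C- libraries, where they are high, so this count supports nothing further. Ebf1, an early B lineage factor, had 301 counts in CD115-Ly6C- cells, 5 counts in CD115+Ly6C+ cells and 9 in CD115+Ly6C- cells. Rag1, a recombinase of developing lymphocytes, had 471 counts in CD115-Ly6C- cells, 3 counts in CD115+Ly6C+ cells and 15 in CD115+Ly6C- cells. Cd79a, the partner chain of Cd79b, had 498 counts in CD115-Ly6C- cells, 42 counts in CD115+Ly6C+ cells and 33 in CD115+Ly6C- cells. Megakaryocyte genes, a list that shares a member with the stem cell markers, summed to 8.56 to 10.1 CPM in CD115-Ly6C-, 2.06 to 6.77 CPM in CD115+Ly6C+ and 1.10 to 1.27 CPM in CD115+Ly6C- libraries. Mast cell and basophil genes summed to 51.5 to 68.5 CPM in CD115-Ly6C-, 41.6 to 90.7 CPM in CD115+Ly6C+ and 18.3 to 32.9 CPM in CD115+Ly6C- libraries. The mast cell and basophil sums of CD115-Ly6C- and CD115+Ly6C+ libraries overlapped. Erythroid genes, with Epor at 0 in both Ly6C- subsets and Alas2 at 0 in CD115+Ly6C+ cells, summed to 16.5 CPM or less in every library. The part of any of these cells in the results was not tested.

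Of the 9 other TALE homeobox genes, 7 could be tested, and 5 rose in CD115-Ly6C- over CD115+Ly6C+ cells with 0 lower (median log2 fold change 1.20). Of all genes tested, 20.1% were called higher and 19.2% lower in that comparison. Tgif1, a TALE repressor of TGF-beta signalling, averaged 62.0 ± 2.06 CPM in CD115-Ly6C-, 25.9 ± 0.609 CPM in CD115+Ly6C+ and 42.9 ± 0.0446 CPM in CD115+Ly6C- cells, in the same order as Meis1. Its relative Tgif2 averaged 33.6 ± 3.53 CPM in CD115-Ly6C-, 17.1 ± 0.0319 CPM in CD115+Ly6C+ and 18.8 ± 0.523 CPM in CD115+Ly6C- cells. Pbx4, a relative of Pbx3, averaged 12.9 ± 4.56 CPM in CD115-Ly6C-, 4.97 ± 0.851 CPM in CD115+Ly6C+ and 7.12 ± 0.764 CPM in CD115+Ly6C- cells. All 3 were highest in CD115-Ly6C- and lowest in CD115+Ly6C+ cells by their means. Pbx4 passed the test in CD115-Ly6C- over CD115+Ly6C+ cells (log2 fold change 1.38 ± 0.31, edgeR adjusted p = 0.00823), a call lost without CD115-Ly6C- replicate 1 (0.0660) and without CD115+Ly6C+ replicate 2 (0.0542). Meis3, also called and named after its values were seen, averaged 0.901 ± 0.00726 CPM in CD115-Ly6C- and 0.171 ± 0.0730 CPM in CD115+Ly6C+ cells. It passed the filter on low counts only through the CD115-Ly6C- libraries, where it is high, so list counts that include it support nothing further. The Meis3 call was lost without any of the 4 libraries compared (0.0919 to 0.186), with the replicate block (0.0731), with no filter (0.166) and by DESeq2 (0.133). With 1 library left out, 2 to 5 of the list were higher, the count being 2 without CD115-Ly6C- replicate 1 and 3 without any other library of the 2 subsets. In CD115-Ly6C- against CD115+Ly6C- cells 3 of the 7 were higher and 0 lower (Tgif1, Tgif2 and Meis3; median 0.59), where 8.43% of all genes were called higher and 6.78% lower. Leaving out any of the 4 libraries compared ended the Tgif1 call there (0.0691 to 0.155), leaving out any of the 6 ended that of Meis3 (0.0538 to 0.210), as did the replicate block (0.0745), no filter (0.124), a fit of the 4 libraries compared (0.0533) and DESeq2 (0.0908), and the Tgif2 call was lost without CD115-Ly6C- replicate 1 (0.0884) and without CD115+Ly6C- replicate 1 (0.0788). In CD115+Ly6C+ against CD115+Ly6C- cells 1 was lower and 0 higher (Tgif1; median -0.33), a call lost without CD115+Ly6C+ replicate 2 (0.0681) and without CD115+Ly6C- replicate 1 (0.0721). Of all genes, 4.34% were called lower and 5.26% higher there. The counts of 0 in this list were also 0 at an unadjusted p under 0.05 and by DESeq2.

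Among 11 relatives and partners of Hlf and Mecom, 10 were tested. Set against CD115+Ly6C+ cells, CD115-Ly6C- cells had 5 higher and 1 lower (median log2 fold change 0.73), where 20.1% of all genes were called higher and 19.2% lower. The shares of all genes against CD115+Ly6C- cells were 8.43% higher and 6.78% lower. In CD115-Ly6C- against CD115+Ly6C- cells 3 were higher and 0 lower by edgeR (Nfil3, Tef and Prdm15; median 0.42; 1 lower at an unadjusted p under 0.05 and 0 by DESeq2). Leaving out any of the 4 libraries compared left 1 of these 3 calls, ending those of Tef (adjusted p from 0.0579 to 0.105) and Prdm15 (0.0909 to 0.171). The Prdm15 call was also lost with the replicate block (0.0521) and with the length trend removed (0.125). In CD115+Ly6C+ against CD115+Ly6C- cells 1 was lower and 0 higher by edgeR (Tef; median -0.25; 0 higher also at an unadjusted p under 0.05 and by DESeq2). Of all genes, 4.34% were called lower and 5.26% higher there. That Tef call was lost when any library except CD115-Ly6C- replicate 1 was left out (0.0522 to 0.130), with the length trend removed (0.0610) and in a fit of the 4 libraries compared (0.0609). The 5 higher against CD115+Ly6C+ cells fell to 3 without CD115-Ly6C- replicate 1 or CD115+Ly6C+ replicate 2. Nfil3, a bZIP repressor that binds the same DNA sites as Hlf, averaged 137 ± 2.18 CPM in CD115-Ly6C-, 40.0 ± 4.84 CPM in CD115+Ly6C+ and 50.6 ± 2.61 CPM in CD115+Ly6C- cells. Tef, a PAR bZIP relative of Hlf, averaged 15.1 ± 1.79 CPM in CD115-Ly6C-, 3.33 ± 0.372 CPM in CD115+Ly6C+ and 6.94 ± 0.540 CPM in CD115+Ly6C- cells. By the edgeR test both rose in CD115-Ly6C- over CD115+Ly6C+ cells, as did Prdm15, a PR domain relative of Mecom, at 23.2 ± 0.0964 CPM in CD115-Ly6C- and 10.2 ± 0.517 CPM in CD115+Ly6C+ cells. Ctbp2, a corepressor that binds Mecom, went the other way, at 8.79 ± 1.10 CPM in CD115-Ly6C- and 16.3 ± 0.485 CPM in CD115+Ly6C+ cells (log2 fold change -0.89 ± 0.20, edgeR adjusted p = 0.00883), a call lost without CD115-Ly6C- replicate 2 (0.0555).

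Of 20 MLL and Cdx regulators of Hox genes, 17 were tested, and Cdx1, Cdx2 and Cdx4, upstream activators of Hox genes in the embryo, were not listed in these libraries. Between CD115-Ly6C- and CD115+Ly6C- cells edgeR called 0 of the 17 higher and 0 lower (median log2 fold change 0.27, beside 0.02 over all genes tested). Of all genes tested, 8.43% were called higher and 6.78% lower in that comparison. At an unadjusted p under 0.05 the counts were 4 higher and 1 lower, and DESeq2 called 1 higher and 0 lower. In CD115-Ly6C- against CD115+Ly6C+ cells 4 were higher and 1 lower (median 0.36). There 20.1% of all genes were called higher and 19.2% lower, so 4 higher of 17 lay near the share over all genes. Kmt2a, which encodes MLL, averaged 45.1 ± 2.84 CPM in CD115-Ly6C-, 20.9 ± 4.01 CPM in CD115+Ly6C+ and 34.1 ± 1.67 CPM in CD115+Ly6C- cells. Aff4, a scaffold of the elongation complex that MLL fusions recruit, averaged 33.9 ± 0.238 CPM in CD115-Ly6C-, 17.4 ± 2.55 CPM in CD115+Ly6C+ and 23.2 ± 1.98 CPM in CD115+Ly6C- cells. Aff1, a relative of Aff4, averaged 35.4 ± 5.17 CPM in CD115-Ly6C- and 16.3 ± 7.46 CPM in CD115+Ly6C+ cells, a call that edgeR lost without CD115-Ly6C- replicate 1 (adjusted p = 0.0569) and with the length trend removed (0.0564). Dpy30, a core subunit of the MLL complexes, was lower at 100.3 ± 4.98 CPM in CD115-Ly6C- and 155 ± 5.17 CPM in CD115+Ly6C+ cells, a call lost with the length trend removed (0.486). Mllt3, also called higher, was lost when any of the 4 libraries compared was left out (adjusted p from 0.0682 to 0.102) and with the length trend removed (0.114). In CD115+Ly6C+ against CD115+Ly6C- cells 1 was lower and 0 higher by edgeR (Kmt2a; median -0.08; 1 higher at an unadjusted p under 0.05 and by DESeq2), and the Kmt2a call was lost without CD115+Ly6C+ replicate 2 (0.146) and without CD115+Ly6C- replicate 1 or 2 (0.171 and 0.0886) and with the length trend removed (0.110). The 4 higher against CD115+Ly6C+ cells became 2 without CD115-Ly6C- replicate 1 or with the length trend removed, which gave 3 lower, and 8 with library totals.

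Genes reported as targets or partners of Hoxa9 and Meis1 were tested in 18 of 20 cases. Set against CD115+Ly6C+ cells, CD115-Ly6C- cells had 12 higher and 2 lower (median log2 fold change 0.67), in CD115-Ly6C- against CD115+Ly6C- cells 6 were higher and 0 lower by edgeR (median 0.43; 2 lower at an unadjusted p under 0.05 and 1 by DESeq2), and in CD115+Ly6C+ against CD115+Ly6C- cells 2 were higher and 7 lower (median -0.31). In that order, 20.1%, 8.43% and 5.26% of all genes tested were called higher and 19.2%, 6.78% and 4.34% lower. The 6 of CD115-Ly6C- over CD115+Ly6C- cells were Flt3, Kit, Cd34, Camk2d, Eya1 and Id2, and without CD115+Ly6C- replicate 1 only Flt3 and Kit of them passed (adjusted p = 0.0783 for Cd34, 0.0688 for Camk2d, 0.101 for Eya1 and 0.0852 for Id2, edgeR). Without CD115+Ly6C- replicate 2 the count was 3, and without CD115-Ly6C- replicate 1 it was 4. The Cd34 call was lost without any of the 4 libraries compared (0.0783 to 0.191) and with the length trend removed (0.157). The 12 higher against CD115+Ly6C+ cells became 7 without CD115+Ly6C+ replicate 2, and the 7 lower of the last comparison became 3 without CD115+Ly6C- replicate 1 and 4 without CD115+Ly6C+ replicate 2. Flt3, the cytokine receptor of dendritic cell progenitors, averaged 1101 ± 53.6 CPM in CD115-Ly6C-, 357 ± 21.8 CPM in CD115+Ly6C+ and 662 ± 6.09 CPM in CD115+Ly6C- cells. Kit, the receptor for stem cell factor, averaged 179 ± 14.5 CPM in CD115-Ly6C-, 53.9 ± 6.996 CPM in CD115+Ly6C+ and 101 ± 9.04 CPM in CD115+Ly6C- cells. Both followed the order of Hoxa9 and Meis1 without overlap. Mef2c, a MADS-box factor with the same order, averaged 413 ± 6.34 CPM in CD115-Ly6C-, 167 ± 7.31 CPM in CD115+Ly6C+ and 315 ± 36.7 CPM in CD115+Ly6C- cells. Cybb, a subunit of the phagocyte oxidase, went the other way, at 42.6 ± 4.96 CPM in CD115-Ly6C-, 136 ± 14.8 CPM in CD115+Ly6C+ and 58.8 ± 9.12 CPM in CD115+Ly6C- cells. Flt3 and Kit also stand in the list of dendritic cell progenitor markers.

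Of 20 stem cell genes, 15 were tested, several of which passed the filter only through CD115-Ly6C- cells. For CD115-Ly6C- over CD115+Ly6C- cells 8 were higher and 0 lower by edgeR (median log2 fold change 1.66; 0 lower also at an unadjusted p under 0.05 and by DESeq2), in CD115-Ly6C- against CD115+Ly6C+ cells 9 were higher and 1 lower (median 1.36), and in CD115+Ly6C+ against CD115+Ly6C- cells 1 was higher and 1 lower (median -0.27). In that order, 8.43%, 20.1% and 5.26% of all genes tested were called higher and 6.78%, 19.2% and 4.34% lower. The count of 8 became 2 and 4 without CD115+Ly6C- replicate 1 or 2 and 3 and 4 without CD115-Ly6C- replicate 1 or 2. The count of 9 became 6 without CD115-Ly6C- replicate 1. Gfi1b, a repressor of stem cell and megakaryocyte-erythroid programmes, averaged 23.9 ± 5.29 CPM in CD115-Ly6C-, 1.08 ± 0.422 CPM in CD115+Ly6C+ and 4.62 ± 0.1496 CPM in CD115+Ly6C- cells. Mycn, a Myc family factor, had 410 and 293 expected counts in CD115-Ly6C- libraries, 0 and 14 in CD115+Ly6C+ libraries and 13 and 12 in CD115+Ly6C- libraries. Robo4, a receptor of stem and endothelial cells, averaged 4.15 ± 0.179 CPM in CD115-Ly6C- cells, and summed to 166 counts there, 3 in CD115+Ly6C+ cells and 20 in CD115+Ly6C- cells. Its call over CD115+Ly6C- cells was lost without CD115-Ly6C- replicate 1 or 2 (0.0805 and 0.0547) and without CD115+Ly6C- replicate 1 (0.0866). Mycn and Robo4 were near the limit of detection in CD115+Ly6C+ cells. Prom1 was the gene that fell in CD115-Ly6C- over CD115+Ly6C+ cells, a call that edgeR lost without CD115-Ly6C- replicate 2 (adjusted p = 0.125) and without CD115+Ly6C+ replicate 1 or 2 (0.0505 and 0.116).

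**Figure D4:**
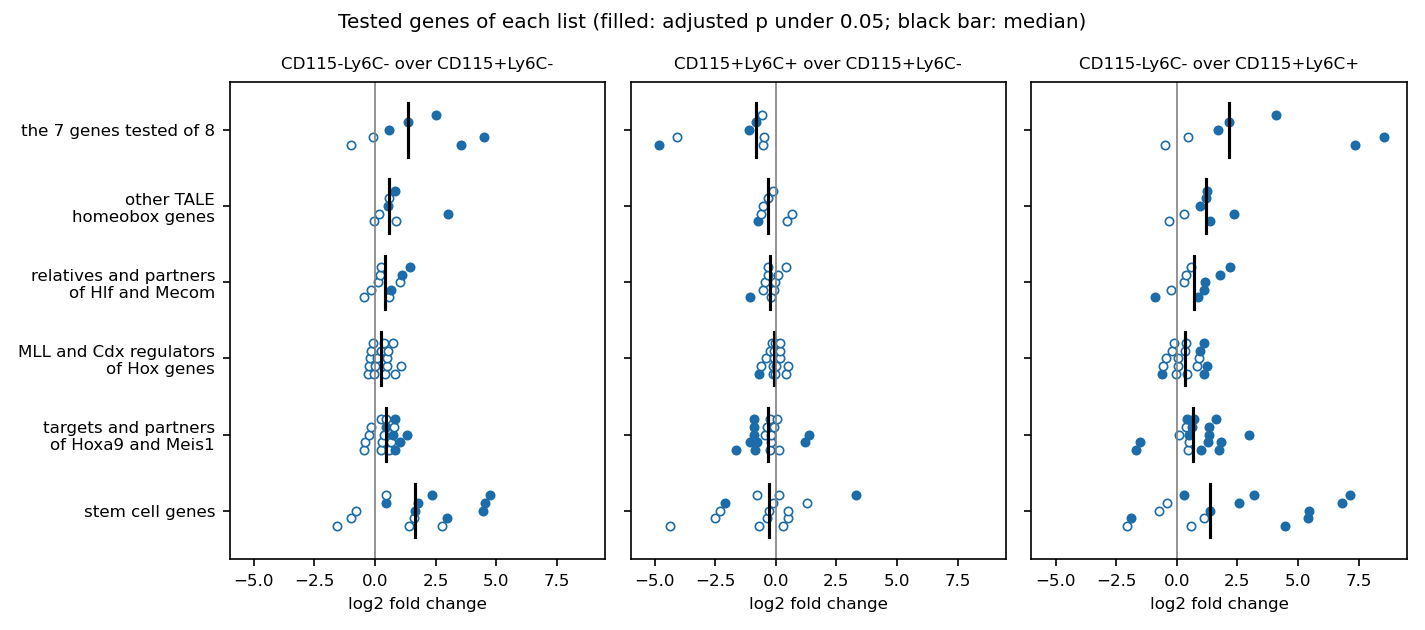
edgeR log2 fold changes of the tested genes of each list in CD115-Ly6C- over CD115+Ly6C-, CD115+Ly6C+ over CD115+Ly6C- and CD115-Ly6C- over CD115+Ly6C+ CDPs; each point is a gene, filled where the adjusted p was under 0.05, and black bars are list medians. In the last comparison the medians run from 0.36 for the MLL and Cdx list to 2.16 for the 7 genes tested of the 8.

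The genes whose log2 CPM ran most like a given member over the 6 libraries were taken from 9712 tested genes with a mean of at least 5 CPM in a subset. The libraries form 3 pairs of near replicates, so Pearson's r mostly compares subset levels and is given as a description. For Hoxa9 these were Clnk, an adaptor of immune receptor signalling (r = 0.999), Dcaf8, a ubiquitin ligase receptor (r = 0.999), and Tbc1d10c, a GTPase-activating protein (r = 0.998). Clnk averaged 12.7 ± 1.91 CPM in CD115-Ly6C-, 0.696 ± 0.117 CPM in CD115+Ly6C+ and 5.16 ± 1.38 CPM in CD115+Ly6C- cells. For Meis1 they were Cxxc5, a zinc finger protein, Gimap5, a GTPase of lymphocytes, and Gabarapl1, an autophagy protein (r = 0.999 each). Cxxc5 averaged 36.8 ± 0.872 CPM in CD115-Ly6C-, 9.97 ± 0.721 CPM in CD115+Ly6C+ and 16.7 ± 2.48 CPM in CD115+Ly6C- cells. Flt3 was among the 3 genes most like Hlf (r = 0.999), and Ezh1, a Polycomb methyltransferase, was the gene most like Mecom (r = 0.997).

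Between the genes of the set, r over the 6 libraries was 0.93 for Hoxa9 and Meis1, 0.98 for Hoxa9 and Hlf and 0.99 for Hoxa10 and Mecom. Hoxa7 stood closest to Hoxa9 (r = 0.81) and farther from Meis1 (r = 0.54). Pbx3 had a negative r with each of the other 6 genes tested, from -0.59 with Mecom to -0.11 with Hoxa7. The CD115-Ly6C- libraries were highest in Hoxa9, Meis1, Hlf, Hoxa10 and Mecom, and Meis1 and Hlf shared the order of Hoxa9 over all 3 subsets. Hoxa10 and Mecom had r = 0.81 and 0.88 with Hoxa9. Hoxa10 overlapped between the CD115+ subsets, and Mecom was near 0 in both. Pbx3 did not share the order of Hoxa9.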

How the data were processed

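RNA of 6 libraries was measured, 2 for each of 3 sorted subsets grouped by the cell type label. Per the labels' protocols, messenger RNA was polyA-enriched, fragmented and amplified by PCR, and the submitters' processing notes name Bowtie2, RSEM and the build mm10; neither states the settings or the strandedness. The authors deposited expected counts and FPKM values per gene, as the file headers name them. Expected counts are RSEM estimates, and 12.6% of those above 0 were not whole.

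Expected counts were rounded and fitted in edgeR 4.0.16 (R 4.3.3; filterByExpr with a minimum count of 10 and total of 15, TMM scaling, glmQLFit and glmQLFTest, Benjamini-Hochberg over 12127 genes, threshold 0.05). All 6 libraries entered 1 fit with a coefficient per subset, which left 3 residual degrees of freedom. SE is the log2 fold change divided by the root of F. The deposited FPKM values were used, untested, to compare levels between genes. Ratios with 1 to 3 counts have exact binomial intervals, and a subset at 0 was set to 3 counts.

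The members and lists were chosen with earlier results of these data known. The text names the 8 members, up to 4 genes of each other list with the smallest adjusted p (at most 3 in a direction), and the genes most like a member by Pearson's r. Replicate libraries differed by more than counting noise (chi-square of 19.6 to 22.3 per degree of freedom). Alternatives were RLE and library-total scaling, no filter, only the 4 libraries compared, a replicate block, removal of each library's trend on gene length, leaving out each library and DESeq2 1.42.0. Genome coordinates and promoters come from RefSeq, GRCm38.p6. Some genes of the lists count in the sums and counts but are not reported here by name.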

Additional observations from a re-analysis of the deposited data

How the results depend on the processing

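Over 21 log2 fold changes of the 7 tested genes and 13 alternatives each, 249 of 273 values kept their direction and side of the threshold, 18 lost a call, 3 gained one and 3 turned sign, none of the last called. The Hoxa7 value for CD115-Ly6C- over CD115+Ly6C- turned to 0.0306 with library totals and ranged from -0.2705 to 0.1080 with 1 library left out, and the Pbx3 value for CD115-Ly6C- over CD115+Ly6C+ ranged from -1.4565 to 0.0678. The cause was not tested. With 1 library left out, the number of the 8 genes called ranged from 1 to 5 for CD115-Ly6C- over CD115+Ly6C- (1 without CD115-Ly6C- replicate 1 or CD115+Ly6C- replicate 1), from 1 to 3 for CD115+Ly6C+ over CD115+Ly6C- and stayed at 5 for CD115-Ly6C- over CD115+Ly6C+. The lone library of a subset is then assumed to vary like the others.

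Over all genes, the calls with 1 library left out ranged from 469 to 1792 for CD115-Ly6C- over CD115+Ly6C- (1844 with all), from 212 to 1154 for CD115+Ly6C+ over CD115+Ly6C- (1164 with all) and from 3039 to 4634 for CD115-Ly6C- over CD115+Ly6C+ (4768 with all). For CD115+Ly6C+ over CD115+Ly6C- the count was 1810 with no filter, 686 with the length trend removed and 1812 by DESeq2. Scaling by library totals moved the median log2 fold change of all genes to 0.14, -0.08 and 0.22 in the order of the comparisons in this paragraph, and with it the split was 1383 higher and 479 lower, 485 higher and 777 lower, and 3504 higher and 1518 lower, against 1022 and 822, 638 and 526, and 2435 and 2333 with TMM. With the length trend removed the splits were 784 and 1658, 361 and 325, and 1551 and 2501. Same-numbered libraries did not deviate together (r = -0.01, 0.15 and -0.00), so the numbers were not taken to pair them. With a replicate block, 1503, 965 and 4550 genes were called, and the calls of the 8 genes were 5, 3 and 5 as without it. Low counts limit Hoxa10, Hlf, Mecom, Pbx3 and Hoxa5.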
